A study of Mus musculus with 4 samples.

Results

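Glycosyltransferases build the sugar chains of cell surface and secreted proteins and of glycolipids, and carbohydrate sulfotransferases add sulfate to them. The enzymes described here are the mouse genes whose symbols begin with B3gal, B3gnt, B3glct, B4gal, Galnt, St3gal, St6gal, St8sia, Chst, Fut, Mgat or Gcnt. They were measured in plasmacytoid dendritic cells (pDCs), dendritic cells that specialise in making type I interferon. By that rule 103 of the 19938 genes read by a probe set with a single gene symbol were members. B4galt2 was read only by a probe set shared with Ccdc24 and is no member.

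The arrays came from mature pDCs sorted from the spleens of wild-type (WT) mice and of mice with a knockout of Flt3 (Flt3 KO), 2 biological replicates of each genotype. Flt3 encodes a receptor tyrosine kinase that drives dendritic cell development. Both genotypes were studied at steady state, and both sets of spleens were digested with collagenase B and DNase. Strain, age, sex, the Flt3 allele, the sorting markers and any pooling of animals are not stated in these sources, so p-values measure the spread between these samples. RNA was amplified, labelled with biotin and hybridised to GeneChip whole-transcript arrays, 1 per sample.

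As background, most of these enzymes sit in the Golgi and act in sequence. Galnt enzymes start mucin-type O-glycans, Mgat enzymes open the branches of N-glycans, and B3gnt, B3gal and B4gal enzymes lengthen the chains. Fucosyltransferases and sialyltransferases finish them. Sialic acid in α2,3 or α2,6 linkage at a chain's end is known to decide which Siglecs, selectins and galectins can bind a cell, and Siglecs are prominent receptors on pDCs.

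Values below are log2 of the intensity the authors deposited. A difference is Flt3 KO minus WT, with limma's moderated standard error (SE). A gene passed when its p-value, adjusted by Benjamini-Hochberg over all 19938 genes, lay under 0.05. The labels were checked with Flt3 itself, which read 10.71 and 10.77 in WT against 8.46 and 8.61 in Flt3 KO. The median over all probe sets lay between 5.78 and 5.84 on the 4 arrays, and a member counts here as above the array median when its mean over the arrays, each taken relative to its own median, was above 0. Since these are bulk samples, fewer cells with a transcript and less transcript per cell cannot be told apart.

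Flt3 KO pDCs had more Galnt6, St3gal2 and St3gal4 signal and less St6gal1, B3galt5 and B3glct signal than WT pDCs. These were the 6 members that passed, 3 higher and 3 lower, or 5.83% of 103, where 2.39% of all genes passed (1.08% higher and 1.31% lower). The other 97 members did not pass. In 57 members, 55.3%, the replicates of the genotypes did not overlap, against 47.2% of all genes. The median difference of the members was 0.0089 (all genes −0.0010) and the median size of the difference 0.12 (all genes 0.097). At an unadjusted p under 0.05 there were 27 members (26.2%, against 17.1% of all genes). With 1 array left out, limma called 0 of all 19938 genes when it was a WT array, 54 when it was Flt3 KO replicate 1 and 2 when it was Flt3 KO replicate 2. The members called were 0 each time, and 16 to 23 had an unadjusted p under 0.05. When each array was centred on its median, 2 members were higher and 5 lower, and 3.36% of all genes passed. That centring moved the median difference of all genes to −0.039.

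The promoter sequences of Galnt6 and St6gal1 are shown because these calls held in each of the 9 alternatives that kept all 4 arrays. Each line holds the 250 bases before the most upstream RefSeq transcript start, 5′ to 3′ on the gene's strand, in GRCm38.p6. The Galnt6 window is chr15:100729377-100729626 on the minus strand, and the St6gal1 window is chr16:23224490-23224739 on the plus strand. Capitals mark the E-box CAGGTG and its reverse complement CACCTG, a sequence type bound by E proteins such as TCF4, which specifies pDCs.
Galnt6: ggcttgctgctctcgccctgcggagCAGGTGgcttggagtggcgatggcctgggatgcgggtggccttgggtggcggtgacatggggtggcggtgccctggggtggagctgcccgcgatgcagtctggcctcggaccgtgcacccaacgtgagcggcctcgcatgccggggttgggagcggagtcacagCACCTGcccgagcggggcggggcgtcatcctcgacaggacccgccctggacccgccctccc
St6gal1: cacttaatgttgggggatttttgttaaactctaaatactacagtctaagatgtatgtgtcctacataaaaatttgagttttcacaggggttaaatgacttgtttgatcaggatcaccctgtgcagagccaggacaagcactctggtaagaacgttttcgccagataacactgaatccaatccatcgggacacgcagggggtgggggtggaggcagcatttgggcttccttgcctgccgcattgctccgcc

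The E-box occurred 2 times in the Galnt6 window and 0 times in that of St6gal1; 17.2% of all 32851 promoter windows of this length held it. An interferon response element (GAAA, any 2 bases, GAAA) and a PU.1 and Spi-B type ETS core, GAGGAAGT, were searched on both strands too and occurred 0 times in both windows (2.98% and 2.44% of all windows). None of the 3 motifs contains another. The second Galnt6 start and the other 2 St6gal1 starts in the table held none of the 3 motifs. St3gal4, B3galt5 and B3glct also had 0 matches at their starts, and St3gal2 was not in the table. Of 103 members, 79 had an entry. A match is a description of letters, and the array gives no value for either start separately.

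**Figure D1:**
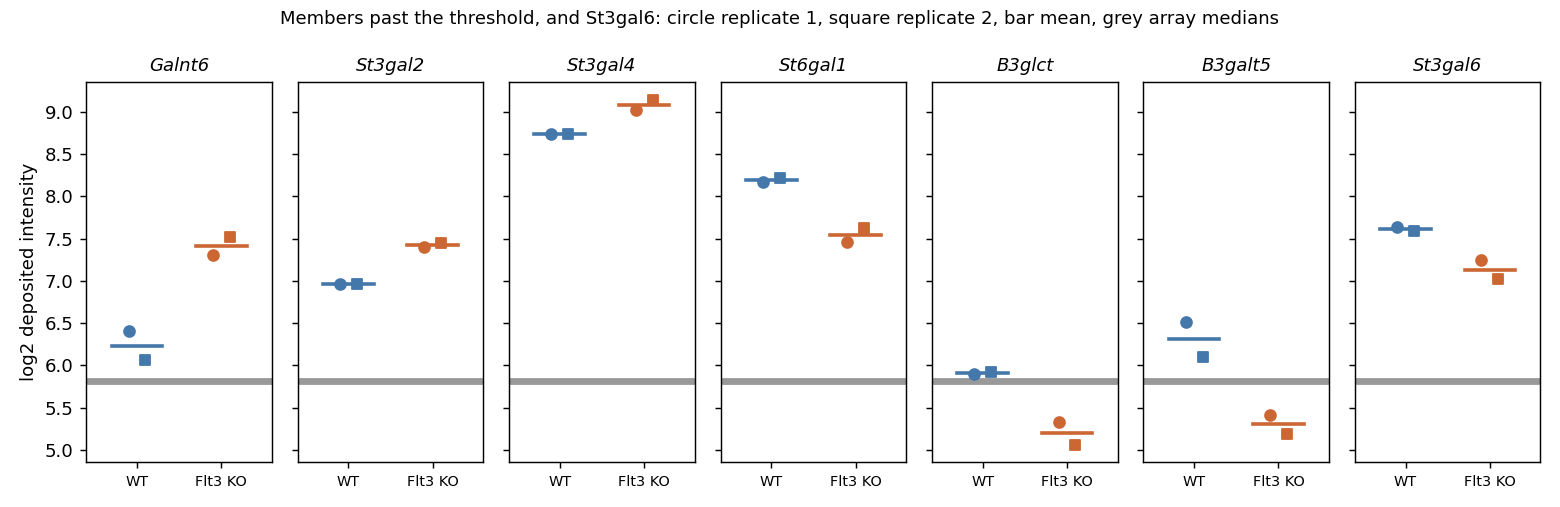
Log2 deposited intensity of the 6 members that passed and of St3gal6 on each array, with circles for replicate 1, squares for replicate 2, bars for the mean of 2 arrays, and a grey band for the array medians (5.78 to 5.84). The genotypes do not overlap in any panel, but these genes were picked by p on the same arrays, and 47.2% of all genes do not overlap. The Flt3 KO values of B3galt5 and B3glct lie below the band.

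Of the sialyltransferases, which cap chains with sialic acid, 1 α2,6 member fell and 2 α2,3 members rose. St6gal1, which adds α2,6-linked sialic acid to the ends of N-glycans, had 8.17 and 8.21 in WT against 7.46 and 7.62 in Flt3 KO. Both Flt3 KO arrays lay below both WT arrays. The signal fell by 0.65 (SE 0.078, limma adjusted p = 0.011), a 1.57-fold difference. St3gal4, which adds α2,3-linked sialic acid to similar chain ends and serves in selectin ligand synthesis, had 8.73 and 8.73 in WT against 9.02 and 9.14 in Flt3 KO. It rose by 0.35 (SE 0.065, adjusted p = 0.046), or 1.27-fold. St3gal2, known for the sialylation of O-glycans and gangliosides, had 6.97 and 6.96 in WT against 7.40 and 7.45 in Flt3 KO, a rise of 0.46 (SE 0.072, adjusted p = 0.025), or 1.38-fold. In both genes the WT arrays nearly coincided, and both Flt3 KO arrays lay above them. The limma call of St3gal4 was lost in 4 of the 9 alternatives that kept all arrays, among them the fits without the intensity trend (adjusted p = 0.14), with median centring (adjusted p = 0.057) and with all probe sets tested together (adjusted p = 0.092). That of St3gal2 was lost without the intensity trend (adjusted p = 0.067) and with all probe sets tested together (adjusted p = 0.055).

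Other α2,3 enzymes had values in both directions. St3gal6, which also acts on N-glycan type chains, had 7.63 and 7.58 in WT against 7.25 and 7.02 in Flt3 KO. Its difference of −0.48 (SE 0.092) missed the threshold with an adjusted p of 0.0502, and it passed in 5 of 9 alternatives that kept all arrays. St3gal1, the main enzyme that sialylates core 1 O-glycans, had 9.59 and 9.47 in WT against 9.72 and 9.74 in Flt3 KO, a difference of 0.20 (adjusted p = 0.16). Its second, dimmer probe set differed by −0.045, so its probe sets disagree in sign. St3gal3 was above the array median as well, at 8.63 and 8.45 against 8.39 and 8.50, with overlapping genotypes. St3gal5, the GM3 synthase that starts the gangliosides, was the 1 α2,3 member below it. In all, 2 of 6 α2,3 members rose and 0 fell.

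Among the 8 members named St6gal or St6galnac, St6gal1 fell and 7 did not pass. St6galnac6, which works on gangliosides, had 5.92 and 5.85 in WT against 6.22 and 6.27 in Flt3 KO (0.36, SE 0.086, adjusted p = 0.092). St6galnac1, which makes the sialyl-Tn antigen, had a difference of −0.35 (adjusted p = 0.13) at a level just below the array median. St6galnac4 and St6galnac2 lay above the median, while St6gal2, St6galnac3 and St6galnac5 lay below it.

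None of the 6 α2,8 members passed in limma, with 2 at an unadjusted p under 0.05. St8sia4, a polysialyltransferase, had 10.64 and 10.77 in WT against 10.55 and 10.59 in Flt3 KO, a difference of −0.13 (SE 0.058, adjusted p = 0.31). The WT replicates of St8sia4 were farther apart than the nearest arrays of opposite genotype, and the difference was −0.20 without WT replicate 1 and −0.063 without WT replicate 2. St8sia6 had a difference of −0.23 (adjusted p = 0.27), and St8sia2, below the array median, 0.30 (adjusted p = 0.18). St8sia1, the GD3 synthase, had 8.58 and 8.44 against 8.78 and 8.53, with overlapping genotypes. Over all 20 sialyltransferases, 3 passed (15.0%, against 2.39% of all genes), and 10 differences were above 0 and 10 below. In 14 of the 20 (70.0%) the genotypes did not overlap, against 47.2% of all genes. Of the 20, 12 lay above the array median, the 3 that passed among them. Of all genes above it, 4.27% passed and 55.9% did not overlap. The median size of their differences was 0.21, where that of all members was 0.12 and that of all genes 0.097.

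**Figure D2:**
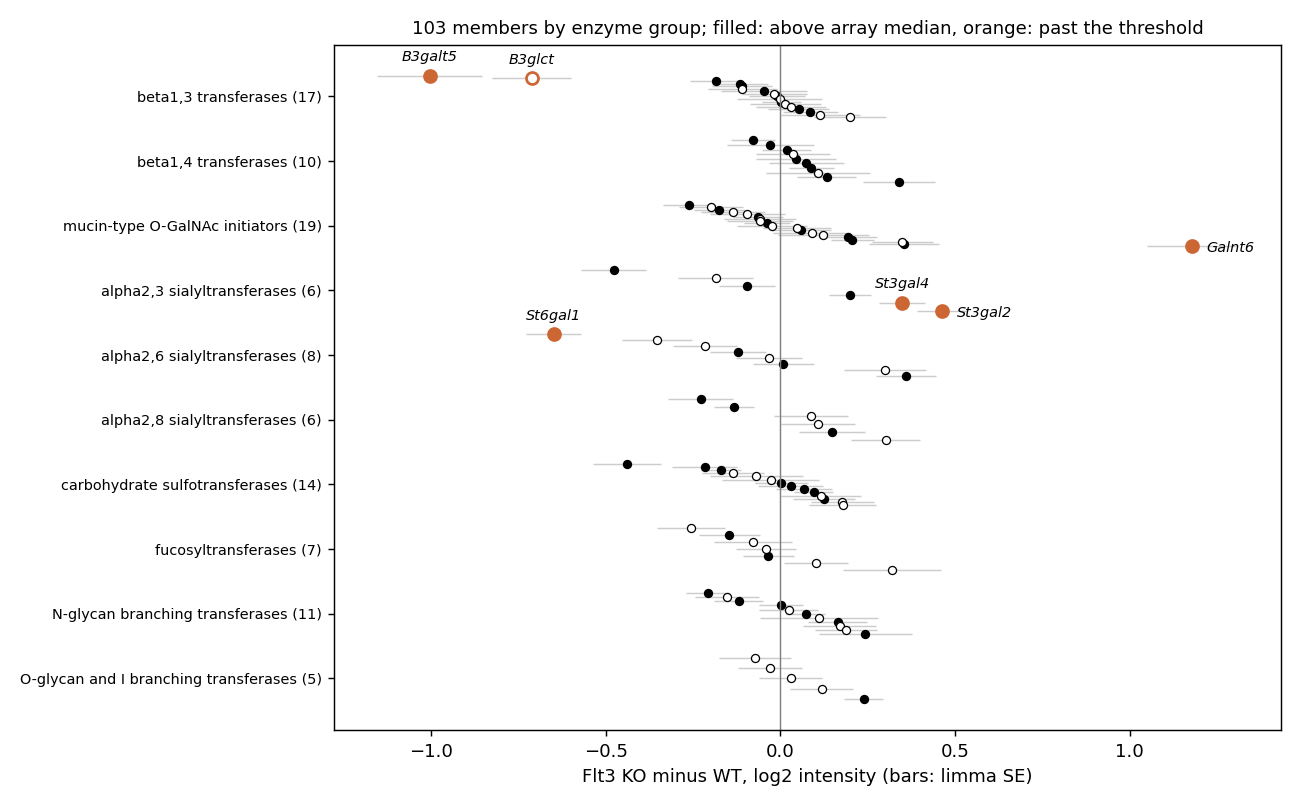
Difference between genotypes (Flt3 KO minus WT, log2 intensity) of each of the 103 members, by enzyme group with its number of members; bars are limma's SE, filled points lie above the array median, and orange points passed the threshold. The 6 orange points are spread over 4 groups, and the sialyltransferase groups hold 3 of them.

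Of the Galnt enzymes, which attach the first sugar of mucin-type O-glycans, Galnt6 rose and the other 18 did not pass. Galnt6 had 6.41 and 6.06 in WT against 7.31 and 7.51 in Flt3 KO, so the lower Flt3 KO array lay well above the higher WT array. The rise was 1.18 (SE 0.13, adjusted p = 0.0085), or 2.26-fold, and was the largest difference of any member. Galnt3, another initiator, had 6.18 and 6.13 in WT against 6.39 and 6.62 in Flt3 KO (0.35, SE 0.10, adjusted p = 0.13). Galnt15 differed by the same amount (0.35, adjusted p = 0.10) at a level below the array median. Galnt1, Galnt2, Galnt4, Galnt7, Galnt10, Galnt11 and Galnt12 also lay above the array median. Galnt2, a broadly expressed initiator, had 7.73 and 7.67 against 7.50 and 7.38, and Galnt7 had 8.32 and 8.31 against 8.50 and 8.55. The genotypes did not overlap in either gene, and neither passed. Galntl5, Galntl6 and 8 Galnt genes, Galnt15 among them, lay at or below the array median.

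The β1,3 transferases held 2 of the 3 members that fell, and none that rose. B3galt5, which adds galactose in β1,3 linkage to form type 1 chains, had 6.51 and 6.10 in WT against 5.42 and 5.19 in Flt3 KO. It fell by 1.00 (SE 0.15, adjusted p = 0.021), and its Flt3 KO values lay below the array median, where the distance from background is unknown, so no fold is given. B3glct, which puts glucose on the O-linked fucose of thrombospondin repeats in the endoplasmic reticulum, had 5.90 and 5.92 in WT against 5.33 and 5.06 in Flt3 KO. It fell by 0.71 (SE 0.11, adjusted p = 0.026), again to below the array median. The call of B3galt5 was lost without the intensity trend (limma adjusted p = 0.063) and with all probe sets tested together (adjusted p = 0.052), and that of B3glct likewise (adjusted p = 0.062 and 0.056).

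B3glct lies on chromosome 5, as Flt3 does. In the RefSeq order of GRCm38.p6, used here for neighbourhood only, 15 measured genes stood between them. In limma 0 of these 15 passed and 1 had an unadjusted p under 0.05. Uspl1 had the lowest adjusted p (difference −0.30, adjusted p = 0.10), and the differences of the 15 ran from −0.30 to 0.27. The part of this position in the B3glct value was not tested.

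The other 15 β1,3 members did not pass. B3galnt1, the globoside synthase, had 7.58 and 7.50 in WT against 7.39 and 7.33 in Flt3 KO (−0.18, adjusted p = 0.27). B3gnt2, the main enzyme of polylactosamine chains, had 9.38 and 9.43 in WT and the same values to that precision, 9.38 and 9.43, in Flt3 KO. B3galnt2, B3galt4, B3gnt5, B3gnt8, B3gnt9 and B3gntl1 lay above the array median too. The 7 others besides B3glct, from B3galt1, B3galt2 and B3galt6 to B3gnt3, B3gnt4, B3gnt6 and B3gnt7, lay below it.

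**Figure D3:**
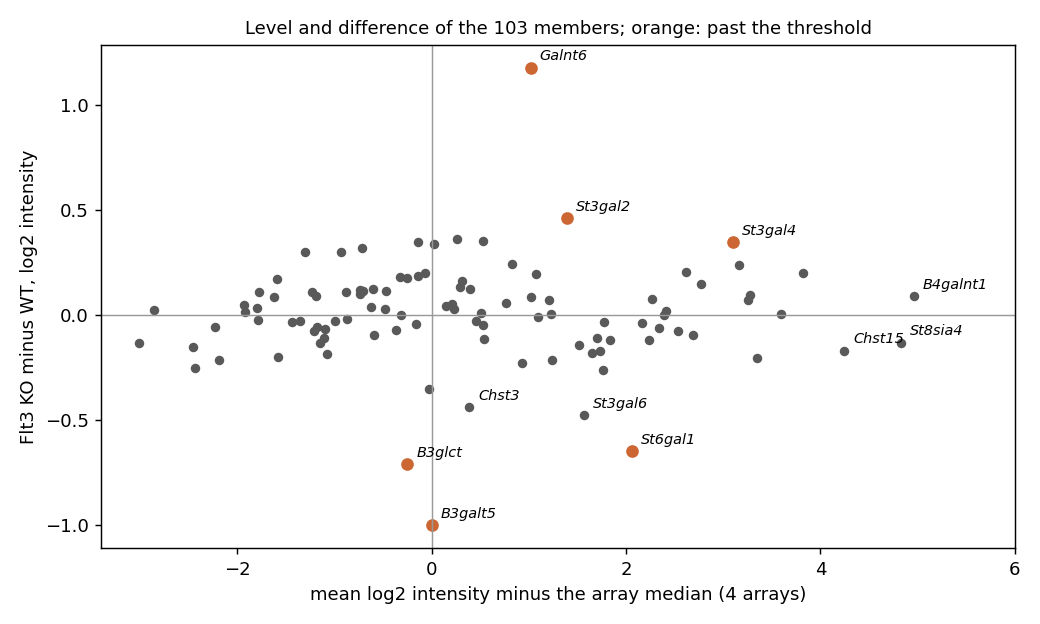
Mean log2 intensity of each member relative to the array median (horizontal axis) and its difference between genotypes (vertical axis, Flt3 KO minus WT, log2 intensity); orange points passed. The orange points run from just below the array median (B3glct) to St3gal4 well above it, and the probe sets' levels are not to be ranked against each other.

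By level, 55 of 103 members (53.4%) lay above the array median, as did 51.5% of all genes. Of these 55, 5 passed (9.09%), where 4.27% of all genes above the median did. Of the 48 members at or below it 1 passed, B3glct (2.08%, against 0.383% of all genes there). Around the boundary, St6galnac1 and B3gnt7 were the nearest below, at −0.027 and −0.075 relative to the median, and B3galt5 and B4galt4 the nearest above, at 3e-04 and 0.021. B3galt5 is above it only through its WT arrays, and B4galt4 only through its Flt3 KO arrays.

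The 10 β1,4 members, which include the galactosyltransferases of lactosamine chains, had 0 that passed in limma and 1 at an unadjusted p under 0.05. That was B4galt4, at 5.65 and 5.66 in WT against 5.89 and 6.10 in Flt3 KO (0.34, SE 0.10, adjusted p = 0.15). B4galnt1, the ganglioside GM2 and GD2 synthase, had 10.71 and 10.74 in WT against 10.72 and 10.90 in Flt3 KO, so its genotypes overlapped. B4galt1, the widely expressed lactosamine enzyme, had 8.39 and 8.37 in WT against 8.33 and 8.28 in Flt3 KO. B4galt3, B4galt5, B4galt6, B4galt7 and B4galnt3 were above the array median, and B4galnt2 and B4galnt4 were below it. B4galt6, a lactosylceramide synthase, had a difference of 0.13 (adjusted p = 0.47).

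N-glycan branching genes did not pass, 0 of 11 in limma with 1 at an unadjusted p under 0.05. Mgat4a, which opens a branch on the α1,3 arm, had 9.25 and 9.27 in WT against 9.11 and 8.996 in Flt3 KO (−0.21, SE 0.062, adjusted p = 0.15). Mgat1, which starts complex N-glycans, had 8.10 and 8.10 against 7.92 and 8.04. Mgat2 had 9.05 and 9.01 against 9.09 and 9.11, and Mgat5, the enzyme of the branch that carries polylactosamine, 8.23 and 8.17 against 8.21 and 8.19. The Mgat5 genotypes overlapped, while those of Mgat1 and Mgat2 did not. Mgat3, which adds the bisecting residue, differed by 0.16 (adjusted p = 0.38), and Mgat5b, below the array median, by 0.19 (adjusted p = 0.34). Mgat4b was the sixth member above the array median.

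Of the Gcnt enzymes, which branch O-glycans and polylactosamine, Gcnt2 was the 1 of 5 above the array median. This I-branching enzyme had 8.84 and 8.85 in WT against 9.06 and 9.11 in Flt3 KO (0.24, SE 0.057, adjusted p = 0.092). The replicates were close and the genotypes apart; the gene passed under quantile normalization (adjusted p = 0.0435) and when dim genes were left out (adjusted p = 0.0496). Gcnt1, the core 2 enzyme used in P-selectin ligands, lay below the array median with 5.56 and 5.39 against 5.34 and 5.46. Gcnt4 differed by 0.12 (adjusted p = 0.56), also below the median.

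Fucosyltransferases had 2 of 7 members above the array median and 0 that passed in limma, with 1 at an unadjusted p under 0.05. Fut8, which adds core fucose to N-glycans, had 7.47 and 7.32 in WT against 7.32 and 7.18 in Flt3 KO (−0.15, adjusted p = 0.46). The Fut8 difference ran from −0.22 without WT replicate 2 to −0.069 without WT replicate 1, and was −0.077 without Flt3 KO replicate 2. Fut11 had 7.55 and 7.63 against 7.52 and 7.60. Fut7, the enzyme that completes sialyl Lewis x on selectin ligands, read 5.12 and 4.73 in WT against 5.30 and 5.19 in Flt3 KO (0.32, SE 0.14, adjusted p = 0.31), below the array median on all 4 arrays. Fut4 and Fut9, which also act on Lewis x structures, were below the median as well, Fut9 with a difference of −0.25 (adjusted p = 0.25). The Fut7 difference was 0.12 without WT replicate 2 and 0.51 without WT replicate 1.

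Of the 14 sulfotransferases 0 passed in limma, and 2 had an unadjusted p under 0.05. Chst3, a chondroitin sulfotransferase, had 6.40 and 6.42 in WT against 5.87 and 6.08 in Flt3 KO. Its difference of −0.44 (SE 0.098, adjusted p = 0.080) passed with median centring (adjusted p = 0.047) and when dim genes were left out (adjusted p = 0.041). Chst15, which adds a second sulfate to chondroitin, had 10.18 and 10.09 in WT against 9.92 and 10.004 in Flt3 KO (−0.17, SE 0.057, adjusted p = 0.20). Chst11, which acts on chondroitin too, had 7.21 and 7.09 against 7.03 and 6.84 (−0.22, adjusted p = 0.30). Both Flt3 KO arrays were lower than both WT arrays in all 3 genes, which had the lowest p of the 14. In 8 of the 14 (57.1%) the genotypes did not overlap. The share was 47.2% of all genes and 55.9% of all genes above the array median. Chst12, an enzyme of the same kind as Chst11, had 9.04 and 9.03 against 9.10 and 9.16, in the other direction. Chst2, Chst8, Chst13 and Chst14 were above the array median, and Chst1, Chst4, Chst5, Chst7, Chst9 and Chst10 below it.

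The rest of the pathway was read from lists of sugar donor synthesis and transport, trimming, other transferases, glycosaminoglycan enzymes and sulfotransferases, and glycan carriers and lectins. Of 124 measured genes, 3 rose and 2 fell (4.03%, against 2.39% of all genes), and 43 had an unadjusted p under 0.05 (all genes 17.1%). Of the 124, 102 (82.3%) lay above the array median. Of all genes above it, 4.27% passed and 25.2% had an unadjusted p under 0.05. The split was 6 higher and 1 lower under quantile normalization, where 2.77% of all genes passed. With median centring it was 4 higher and 7 lower, where 3.36% of all genes passed. The median difference was −0.033 (all genes −0.0010). With dim genes left out, it was −0.065 over the 101 pathway genes still tested and −0.037 over all 9969 genes still tested.

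Of 24 donor synthesis genes 1 fell and 0 rose. It was Gnpnat1, which acetylates glucosamine on the way to UDP-GlcNAc, at 6.73 and 6.86 in WT against 6.38 and 6.23 in Flt3 KO (fell by 0.49, SE 0.092, adjusted p = 0.048). Of 9 genes of N-glycan trimming, all above the array median, 1 fell and 0 rose. In 8 the difference was below 0 (median −0.19), where 10041 of all 19938 genes had one below 0 (median −0.0010). With dim genes left out, the median over the 9969 genes still tested was −0.037. The gene that passed was Man1c1, a Golgi mannosidase, at 10.13 and 10.07 in WT against 9.84 and 9.78 in Flt3 KO (fell by 0.29, SE 0.054, adjusted p = 0.044). Man1a, a sister mannosidase, had the 1 positive difference, 0.32 (adjusted p = 0.16; named after its value was seen). The calls of Gnpnat1 and Man1c1 were lost in 5 and 4 of the 9 alternatives that kept all arrays. For Man1c1 these included quantile normalization (limma adjusted p = 0.059). None of 13 nucleotide sugar and sulfate donor transporters passed in limma, with 1 at an unadjusted p under 0.05, Slc35c2 (−0.29, adjusted p = 0.16), whose difference was −0.16 when Flt3 KO replicate 1 was left out and −0.42 when replicate 2 was. None of 6 sialidases and sialic acid esterases passed, with 1 at an unadjusted p under 0.05, Siae (−0.30, adjusted p = 0.089).

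Among 13 other O-glycan and Notch-type transferases Lfng rose and 12 did not pass. Lfng, the fringe enzyme that extends O-fucose on Notch, had 6.98 and 6.92 in WT against 7.39 and 7.68 in Flt3 KO (0.59, SE 0.10, adjusted p = 0.039). Sulf2, which removes sulfate from heparan sulfate at the cell surface, was the 1 that passed of 34 genes for glycosaminoglycan enzymes and sulfotransferases. That list also holds the protein sulfotransferases Tpst1 and Tpst2. Sulf2 had 5.74 and 5.88 in WT against 6.47 and 6.39 in Flt3 KO (0.62, SE 0.091, limma adjusted p = 0.021). Lgals3, the galactose-binding lectin galectin-3, was the 1 of 17 carriers and lectins, with 8.67 and 8.51 in WT against 9.06 and 9.36 in Flt3 KO (0.62, SE 0.10, adjusted p = 0.034). Of 8 genes of glycolipid start and removal 0 passed in limma and 4 had an unadjusted p under 0.05, with Ugcg, the glucosylceramide synthase, at 0.27 (adjusted p = 0.091). In 69 of the 124 genes (55.6%) the genotypes did not overlap, against 47.2% of all genes. The 5 that passed, picked by p on these same arrays, were among the 69. The limma calls of Lfng and Lgals3 were lost without the intensity trend and with all probe sets tested together, and that of Sulf2 without the intensity trend (adjusted p = 0.051).

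**Figure D4:**
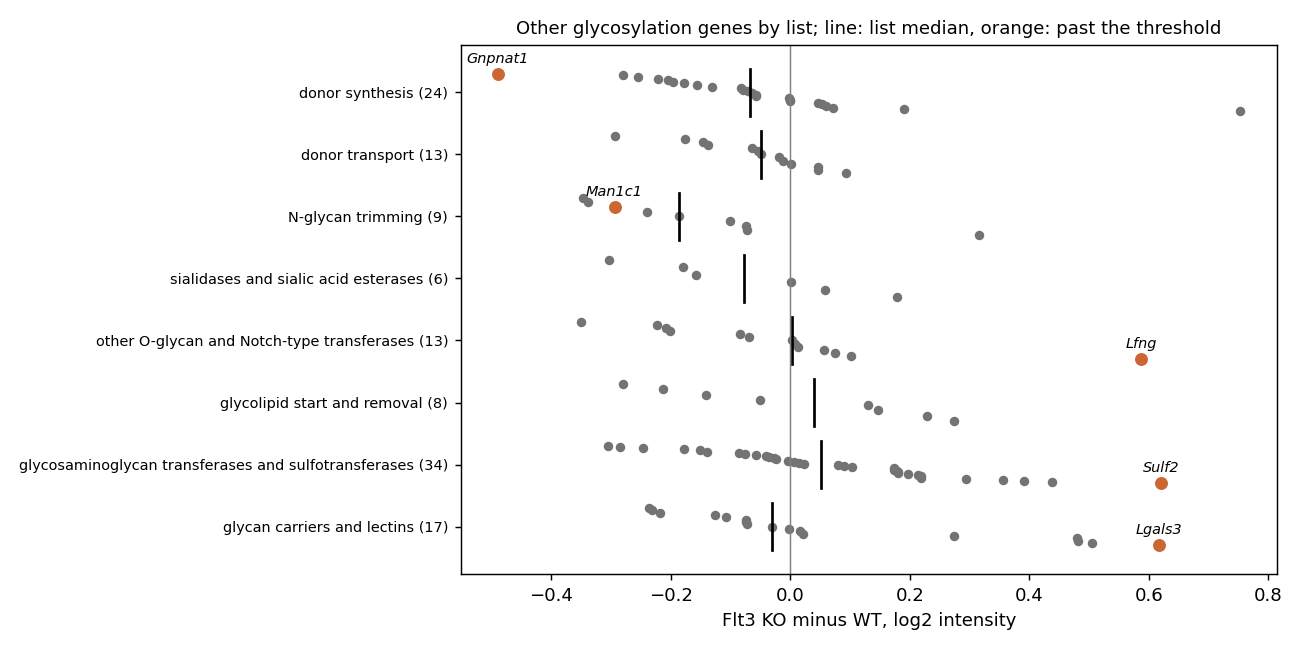
Difference between genotypes (Flt3 KO minus WT, log2 intensity) of 124 other glycosylation genes in 8 lists with the number measured; the black line is the list's median and orange points passed the threshold. N-glycan trimming has the lowest median, −0.19, and the orange points are Gnpnat1, Man1c1, Lfng, Sulf2 and Lgals3.

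Markers of the sorted cell type and of other cells were read on the same arrays. For scale, 2.39% of all genes passed (1.08% higher and 1.31% lower), and 4.27% of genes above the array median. An unadjusted p under 0.05 was seen in 17.1% of all genes. Of 11 pDC markers 7 fell and 0 rose, with a mean log2 level of 11.50 on both WT arrays and of 11.19 and 11.18 on the Flt3 KO arrays. Of 14 monocyte and macrophage markers 5 rose and 0 fell, and the mean level was 8.02 and 7.89 in WT against 8.26 and 8.60 in Flt3 KO. Of 9 B cell markers 0 passed in limma, with 3 at an unadjusted p under 0.05, and the mean level was 6.67 and 6.64 in WT against 6.64 and 6.54 in Flt3 KO. Elsewhere 1 marker rose and 1, Flt3, fell of 12 for conventional dendritic cells, 2 rose and 2 fell of 10 for plasma cells, 1 fell of 10 for T cells and 1 rose of 10 for NK cells. Of 10 neutrophil, 5 erythroid and 4 megakaryocyte and platelet markers 0 passed in limma (3, 2 and 1 at an unadjusted p under 0.05). The deposited table has no detection calls, so no marker is listed at 0. The part of other cells in the member values was not tested. By mean level Flt3 KO replicate 2 had the higher monocyte and macrophage values, and Flt3 KO replicate 1 lay above both WT arrays too. When Flt3 KO replicate 2 was left out, the difference was 1.08 for Galnt6, 0.44 for St3gal2, 0.29 for St3gal4 and −0.73 for St6gal1. It was −0.89 for B3galt5 and −0.58 for B3glct. That fit held 1 Flt3 KO array and had 1 residual degree of freedom, so these differences are given without a test.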

How the data were processed

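Gene expression was measured on 4 arrays, 2 WT and 2 Flt3 KO. The authors deposited 1 table of processed intensity on a linear scale for 30177 probe sets; how they corrected background, summarised and scaled it is not given in the sources used here. Of the probe sets, 21789 had a single symbol in the platform annotation, 1621 several and 6767 none; only the first were used. Per gene the probe set with the highest mean was kept, and 3 members had more than 1. Intensities were converted to log2 with nothing added and no filter, and the genotypes were fitted with limma 3.58.1 under R 4.3.3 by lmFit and eBayes, with an intensity trend and no covariate. The fit covered all 19938 genes, with Benjamini-Hochberg adjustment over them.

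On simulated data of 19938 genes, the test called 52 of 100 genes changed by 1.0 on the log2 scale. It called 4 of 100 changed by 0.5, with 0 calls among unchanged genes. The simulation changed 200 genes, whereas 476 genes passed in the data. Its noise was drawn with residual standard deviations estimated from the 4 arrays, which scatter more between genes than the true ones would. These shares may therefore differ from those of the real comparison. The smallest two-sided p an exact permutation test could give for 1 gene is 0.3333. The number of arrays limits the precision.

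The members, the pathway lists and the marker lists were chosen with earlier results of these data known. Named members are those past the threshold, the 3 with the lowest p of each enzyme group, the 10 with the largest differences and, for levels, those above the array median. From each pathway list, genes past the threshold were named, otherwise the 1 with the lowest p. Gene identifiers of all 103 members were found in the RefSeq table of GRCm38.p6, which also names 3 pathway genes listed under older symbols. Promoter sequences are RefSeq's, of that build. The alternatives changed the variance model, scaling, added constant, dim-gene filter, probe set rule, replicate block and arrays used.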

Additional observations from a re-analysis of the deposited data

How the results depend on the processing

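Across the 9 alternatives that kept all arrays, 6 or 7 members passed in 7 of them, where 1.88% to 7.26% of all genes passed. Without the intensity trend and with all probe sets tested together, 2 passed, Galnt6 and St6gal1 (all genes 0.542% and 1.1%). With dim genes left out, only 53 members were tested, B3galt5 and B3glct not among them. Of the 7 that passed there, 4 were shared with the reported fit. The count above the array median, 55, was 53 against the median of single-symbol genes. The members' median of 0.0089 became −0.029 with median centring, where that of all genes was −0.039. Of the pathway genes, 5 with all choices as reported, 0 passed in limma without the intensity trend (37 at an unadjusted p under 0.05; all genes passed at 0.542%), 8 with robust variance (all genes 3.0%), 11 with median centring (3.36%), 15 of the 101 still tested with dim genes left out (7.26% of 9969 genes) and 1 with all probe sets tested together (1.1%). The labels do not say whether same-numbered arrays were prepared together. Deviations of same-numbered arrays correlated with r = −0.017 across 19938 genes, which are not independent replicates. No shared shift was seen, but this cannot show that the samples were unpaired. With the replicate number as a block 6 members passed, 2 higher and 4 lower, 5 of them shared with the fit without it, and 3 pathway genes passed (all genes 1.88%). St3gal4 was the member that no longer passed with the block (limma adjusted p = 0.063), and St3gal6 passed in its place. The median difference with the block was 0.0089.

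With 1 array left out, 0 members and 0 pathway genes passed in each of the 4 limma fits (16 to 23 and 27 to 37 at an unadjusted p under 0.05), where 0, 0, 54 and 2 of all 19938 genes passed. The members' median ranged from −0.0072 to 0.021. The causes were not tested. All 6 members kept their sign in these 4 fits. Over the 39 genes tested by name, the sign turned for B4galnt1 without Flt3 KO replicate 2 (range with 1 array left out −0.0019 to 0.18) and for Gcnt1 without WT replicate 1 (range −0.16 to 0.013), and for none in the alternatives that kept all arrays. The difference of St8sia6 ran from −0.32 without Flt3 KO replicate 2 to −0.14 without Flt3 KO replicate 1, and that of Chst11 from −0.31 without Flt3 KO replicate 1 to −0.12 without Flt3 KO replicate 2. With 16 added to the intensity, the differences of Fut9 and St8sia2 became −0.10 and 0.195, and under quantile normalization that of Gcnt4 became 0.072. With no detection calls, how far a gene below the array median stands above background is unknown.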

Other observations

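The probe set shared by Ccdc24 and B4galt2, left out of the comparison because it cannot be assigned to a single gene, read 5.19 and 5.21 in WT against 5.24 and 5.19 in Flt3 KO. Both other probe sets of Galntl6 differed by −0.15, whereas the one kept for it differed by 0.090. The second probe set of Fut11 differed by −0.053 and the one kept by −0.034. Gfpt2, the sister enzyme of Gfpt1 at the entry to the hexosamine pathway, had 5.16 and 4.95 in WT against 6.21 and 5.40 in Flt3 KO. Its Flt3 KO replicates lay farther apart than the genotype means (difference 0.75, limma adjusted p = 0.17), and it is named after its values were seen.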
